A study of Mus musculus with 6 samples.

Results

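The core circadian clock genes of Hepa 1–6, a mouse hepatoma cell line that the labels class as hepatocytes, were followed at the level of RNA in 3 libraries of cells treated with Shh, the secreted ligand of the hedgehog pathway, and in 3 libraries of cells given vehicle. The members were taken by symbol from the deposited gene table. They are *Clock*, *Arntl* (which encodes Bmal1), *Npas2*, *Per1*, *Per2*, *Per3*, *Cry1*, *Cry2*, *Nr1d1* and *Nr1d2*, 10 of the 18169 genes in the table, and all 10 were found there. The study examined Bmal1 as a regulator of the deubiquitylase gene *Usp31* in hepatocytes given Shh, which is why the clock genes are of interest in these libraries. Poly(A) RNA was sequenced. Neither the Shh dose and duration nor the hour of harvest nor any synchronization of the cells is given for these libraries in the sources used here, so each value is a level at an unstated clock phase. No label ties the 3 replicates to separate cultures, so the p-values reflect library-to-library spread alone, which may be technical.

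In the mammalian clock, Clock (or its paralog Npas2) pairs with Bmal1 and activates genes that carry an E-box in their promoter. Among these genes are the Per and Cry genes, whose proteins return to the nucleus and repress the same pair, and *Nr1d1* and *Nr1d2*, which encode the nuclear receptors Rev-erb alpha and Rev-erb beta. The Rev-erbs repress *Arntl* through an element that they share with the activating ROR receptors. In liver this loop sets the daily timing of lipid, bile acid and glucose metabolism, and cultured cells keep a loop of their own that drifts out of phase between cells unless it is reset.

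To show which of these promoters carry the letters that clock factors read, 4 motifs were searched on both strands in RefSeq promoter windows of 300 bases (250 before the annotated start and 50 after, build GRCm38.p6), and 9 of the 10 members had at least 1 window. *Per2* had no window, so its promoter was not searched. The motifs were the E-box CACGTG, which 7.15% of all 32851 windows hold, the related E-prime-box CACGTT, held by 4.68% of windows, the Rev-erb/ROR core AGGTCA, held by 16.3%, and the D-box TTANGTAA, held by 2.32%. A match by itself describes the letters and does not show that a factor binds there. For the *Usp31* promoter, the study also tested Bmal1 binding by gel shift and by chromatin immunoprecipitation. The E-box was found in *Per1* (1 of its 2 windows, 166 bases before the start), in *Cry1* (60 bases before) and in *Usp31* (22 bases before), and the sequences are shown 5′ to 3′ on the strand of the gene with the motif in capitals.
Per1, chr11:69098773-69098798, plus strand: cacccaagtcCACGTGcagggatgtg
Cry1, chr10:85185099-85185124, minus strand: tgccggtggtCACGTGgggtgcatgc
Usp31, chr7:121707449-121707474, minus strand: gccagcgagtCACGTGagctgcccac

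The E-prime-box, read on the opposite strand as AACGTG, was found in *Cry1*, *Cry2* and *Nr1d1*. These sequences are shown because they are repressor genes of the loop without (*Cry2*, *Nr1d1*) or beside (*Cry1*) a full E-box in the window.
Cry1, chr10:85185118-85185143, minus strand: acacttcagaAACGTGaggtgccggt
Cry2, chr2:92434220-92434245, minus strand: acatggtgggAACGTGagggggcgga
Nr1d1, chr11:98775390-98775415, minus strand: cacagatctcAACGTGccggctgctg

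The Rev-erb/ROR core was found in *Clock* (119 bases before the start, in 1 of 3 windows), *Per1* (137 bases before), *Nr1d2* (77 bases before) and *Arntl* (31 bases after, in 1 of 2 windows). *Arntl* is shown because there the core stood within the longer Rev-erb/ROR element with its A/T-rich flank, which 0.384% of all windows hold. *Per3* held the D-box at 205 and at 158 bases before its start, and the D-box is the element read by the Dbp family of output factors.
Arntl, chr7:113207532-113207557, plus strand: ggcagaaagtAGGTCAgggacggagg
Per3, chr4:151044853-151044880, minus strand: gacccgcgcgTTATGTAAggtactcggg
Per3, chr4:151044806-151044833, minus strand: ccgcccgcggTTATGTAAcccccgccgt

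The libraries were alike in depth, with 20253781 to 20291075 estimated counts per Shh library and 20278619 to 20335463 per vehicle library. The test was the quasi-likelihood test of edgeR on rounded counts with TMM normalization, a scaling that aligns the bulk of the genes between libraries. Levels are given as TMM-normalized counts per 1000000 (CPM). Of 12286 genes that passed the filter on low counts, 0% were called at an adjusted p under 0.05, 10.4% were at an unadjusted p under 0.05 (4.83% higher and 5.56% lower with Shh), and in 15.5% the Shh and vehicle groups did not overlap (6.79% above and 8.67% below). Longer transcripts had higher log2 fold changes across genes, which are not independent replicates (Spearman's rho 0.54 over 11471 genes). Relative to the vehicle mean on the log2 scale, the median of the longest 20% of genes was 0.011, 0.13 and 0.058 in Shh replicates 1, 2 and 3, and that of the shortest 20% -0.026, -0.17 and -0.063. Of the hepatocyte markers, *Alb* and *Hnf4a* averaged 986 and 198 CPM in Shh-treated cells, and 1004 and 193 CPM in vehicle-treated cells, while *Ttr* averaged 0.42 CPM with Shh and 0.35 CPM with vehicle. Of the 10 hepatocyte markers tested, 3 had a log2 fold change above 0 and 7 below, and 0 were called by edgeR or DESeq2 (1 and 2 at an unadjusted p under 0.05). With Shh, *Trf* was wholly lower (-0.11, adjusted p = 0.469 from edgeR) and *Hnf4a* wholly higher by a narrow margin (0.037, adjusted p = 0.733 from edgeR). The summed level of the 5 macrophage markers in the table was 14.5 to 21.4 CPM with Shh and 17.4 to 17.8 CPM with vehicle, that of 5 endothelial markers 1.28 to 2.92 and 1.34 to 2.44 CPM, and that of 6 stellate cell or fibroblast markers 16.5 to 48.0 and 20.0 to 33.0 CPM. The 4 cholangiocyte markers were far higher, summing to 237 to 247 CPM with Shh and 238 to 246 CPM with vehicle. Of these, *Krt7* averaged 151 CPM with Shh and 154 CPM with vehicle, and *Sox9* 75.8 and 72.8 CPM. The ranges of the sums overlapped for each of these lists. In RNA pooled from many cells, fewer cells that express a gene and less RNA per cell cannot be told apart.

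Hepa 1–6 cells expressed most of the core loop. On the deposited FPKM scale, which divides by transcript length and so lets different genes be compared, *Per1* was at the top with 14.2, 14.6 and 12.8 FPKM in Shh replicates 1, 2 and 3, against 13.6, 13.7 and 13.5 FPKM in vehicle replicates 1, 2 and 3. *Arntl* followed with 10.6 ± 0.389 FPKM with Shh and 10.7 ± 0.760 FPKM with vehicle (SD, n = 3 each), and *Nr1d1* with 9.48 ± 0.787 FPKM with Shh and 8.60 ± 0.465 FPKM with vehicle. The ranges of these 2 neighbours over the 6 libraries overlapped, so their order was not larger than their spread. *Cry1* stood alone below them at 4.86 to 5.77 FPKM over the 6 libraries. *Clock*, *Cry2* and *Nr1d2* formed the next step, at 2.05 to 2.73, 1.96 to 2.26 and 1.62 to 2.05 FPKM, with each neighbour overlapping the next. *Per2* lay lower at 0.54 to 0.63 FPKM and *Per3* at 0.07 to 0.20 FPKM. *Npas2*, the paralog of *Clock* best known from the forebrain, was listed at 0 FPKM in 2 Shh libraries and reached 0.02 FPKM at most.

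**Figure D1:**
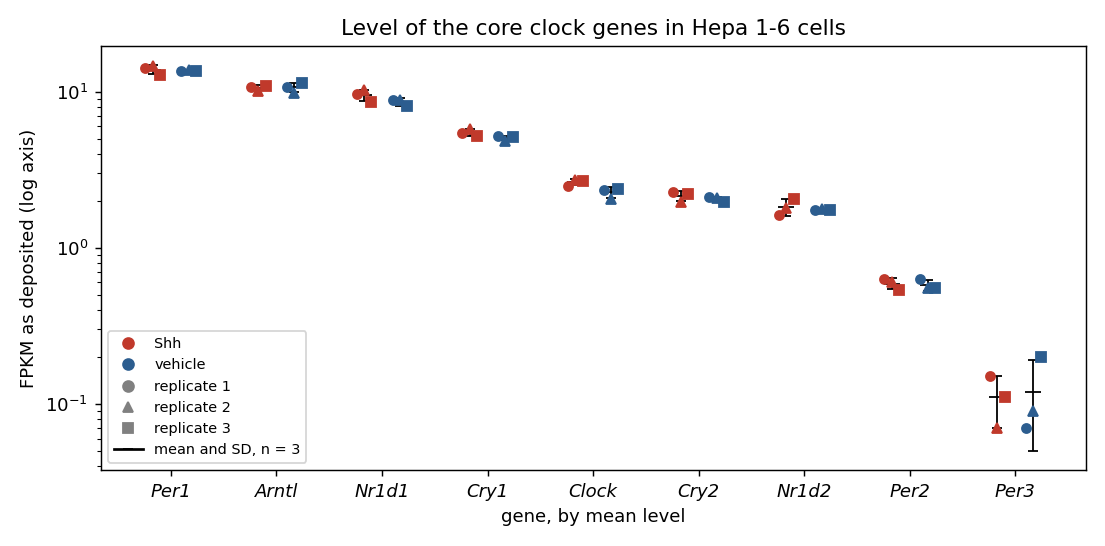
Deposited FPKM (vertical log axis) of 9 core clock genes in order of their mean level (horizontal axis), with 1 marker per library, Shh left of vehicle, and the mean and SD of 3 libraries in black. *Per1* is at the top at 12.8 to 14.6 FPKM and *Per3* at the bottom at 0.07 to 0.20 FPKM, and *Npas2* is not drawn because 2 Shh libraries list it at 0.

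Of the 10 members, 9 passed the filter on low counts and *Npas2* did not. None of the 9 was called by edgeR (0 members at an adjusted p under 0.05, against 0% of all genes tested) or by DESeq2 (0 members). At an unadjusted p under 0.05 there was 1 member in edgeR (10.4% of all genes tested) and 1 in DESeq2 (6.63%), *Clock* in both. Of the 9, 5 had a log2 fold change above 0 and 4 below, from -0.048 to 0.20, with a median of 0.031, against a median of 0.0028 over all genes tested. That median was -0.029 with an offset for transcript length (8 members) and -0.028 without Shh replicate 1. The 3 Shh libraries lay wholly apart from the 3 vehicle libraries for 1 of the 9, *Clock*, where 15.5% of all genes tested were so separated. With 3 libraries a group, no exact permutation test of a single gene can reach a p under 0.10. Per library, the median of the 9 relative to the vehicle mean was 0.11, -0.013 and 0.013 on the log2 scale in Shh replicates 1, 2 and 3, against 0.037, -0.052 and -0.010 in vehicle replicates 1, 2 and 3, and the groups overlapped.

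*Clock* (NCBI gene 12753) encodes the histone acetyltransferase partner of Bmal1. Its level was 24.4, 25.8 and 26.1 CPM in Shh replicates 1, 2 and 3, against 23.4, 20.1 and 23.0 CPM in vehicle replicates 1, 2 and 3, which is 25.4 ± 0.931 CPM with Shh and 22.2 ± 1.77 CPM with vehicle (SD, n = 3 each). All Shh values exceeded all vehicle values, and vehicle replicate 2 was the lowest of the 6. The log2 fold change was 0.20 (standard error 0.069, 95% interval 0.048 to 0.35), or 14.7% more in the means, with an adjusted p of 0.469 from edgeR, so it did not pass. With an offset for transcript length the value was 0.11 (adjusted p = 0.810 from edgeR), and without vehicle replicate 2 it was 0.13. The deposited counts and FPKM give this gene a transcript of 9709 bases, against a median of 2690 for all genes tested. As a ratio to the mean of vehicle, *Clock* stood at 1.10, 1.16 and 1.18 in Shh replicates 1, 2 and 3, against 1.05, 0.908 and 1.04 in vehicle replicates 1, 2 and 3. Beyond the offset, the part of transcript length in this difference was not tested.

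*Arntl* (NCBI gene 11865), the gene of Bmal1, differed between the groups by less than the spread of the libraries. It was at 27.5, 26.5 and 28.4 CPM in Shh replicates 1, 2 and 3, against 28.8, 25.9 and 29.7 CPM in vehicle replicates 1, 2 and 3. The Shh values all lay within the range of the vehicle values. The log2 fold change was -0.036 (standard error 0.064, adjusted p = 0.864 from edgeR), and its 95% interval of 0.886 to 1.07 in fold bounds the size of a difference in total *Arntl* RNA that these libraries leave room for. The interval covers the spread between libraries, and it says nothing of the Bmal1 protein or its place in the cell. *Arntl2*, the paralog of *Arntl*, was at 24.8 ± 1.26 CPM with Shh and 24.6 ± 1.39 CPM with vehicle (SD, n = 3 each), with a log2 fold change of 0.016.

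*Npas2* (NCBI gene 18143), which can take the place of Clock, had 0, 1 and 0 counts in Shh replicates 1, 2 and 3, against 1, 2 and 1 counts in vehicle replicates 1, 2 and 3. At this depth no fold change is given, and no library had more than 2 counts.

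Among the repressors, *Per1* (NCBI gene 18626), which also responds to growth factors and serum as an immediate early gene, was at 66.0, 65.9 and 58.9 CPM in Shh replicates 1, 2 and 3, against 63.5, 64.3 and 63.2 CPM in vehicle replicates 1, 2 and 3. The vehicle libraries were tightly grouped, and the Shh libraries fell on either side of them. The log2 fold change was -0.0013 (standard error 0.052), with a 95% interval of 0.923 to 1.08 in fold. Of 6 immediate early genes, summing to 759 to 791 CPM with Shh and 735 to 776 CPM with vehicle, none passed in edgeR. At an unadjusted p under 0.05 in edgeR there were 3 higher and 1 lower, against 4.83% and 5.56% of all genes tested. Named after their values were seen, *Fosb* (log2 fold change 0.39), *Fos* (0.28) and *Egr1* (0.18) had Shh libraries wholly above the vehicle libraries, as had 6.79% of all genes tested. Each of them had an adjusted p of 0.469 from edgeR, and *Junb* (-0.10, adjusted p = 0.477 from edgeR) had overlapping groups. Their part in the values of the clock genes was not tested.

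*Per2* (NCBI gene 18627), which encodes a repressor that pairs with the Cry proteins, had 74, 67 and 62 counts in Shh replicates 1, 2 and 3, against 73, 64 and 65 counts in vehicle replicates 1, 2 and 3. These counts overlapped almost wholly. The log2 fold change was -0.017 (standard error 0.15), and the 95% interval ran from 0.785 to 1.25 in fold, wider than for the other Per and Cry genes except *Per3*. *Per3* (NCBI gene 18628) had 17, 8 and 13 counts in Shh replicates 1, 2 and 3, against 8.1, 10 and 17 counts in vehicle replicates 1, 2 and 3. Its 95% interval spanned 0.580 to 1.97 in fold, so these few counts leave room for a difference anywhere within those bounds. *Per3* also overlaps *Camta1* on the same strand in GENCODE M21, and its counts could be split with that gene.

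The cryptochrome genes pointed in opposite directions, and neither passed. *Cry1* (NCBI gene 12952), whose protein is the stronger repressor of the Clock and Bmal1 pair, was at 16.3, 16.7 and 15.4 CPM in Shh replicates 1, 2 and 3, against 15.6, 14.6 and 15.2 CPM in vehicle replicates 1, 2 and 3. Shh replicate 3 lay below vehicle replicate 1, so the groups overlapped on this scale, while on library totals alone and on the deposited FPKM the groups were apart with Shh higher. The log2 fold change was 0.093 (standard error 0.067, adjusted p = 0.623 from edgeR). *Cry2* (NCBI gene 12953) was at 7.87, 7.56 and 7.61 CPM in Shh replicates 1, 2 and 3, against 7.73, 8.32 and 7.77 CPM in vehicle replicates 1, 2 and 3. The Shh range crossed that of vehicle, and the log2 fold change was -0.048 (standard error 0.090). The counts of *Cry2* were not whole in any of the 6 libraries, and what they shared reads with was not tested. In GENCODE M21, *Cry2* overlaps the processed transcript *D930015M05Rik* on the opposite strand by 23417 bases, and the deposited gene table does not list that gene.

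**Figure D2:**
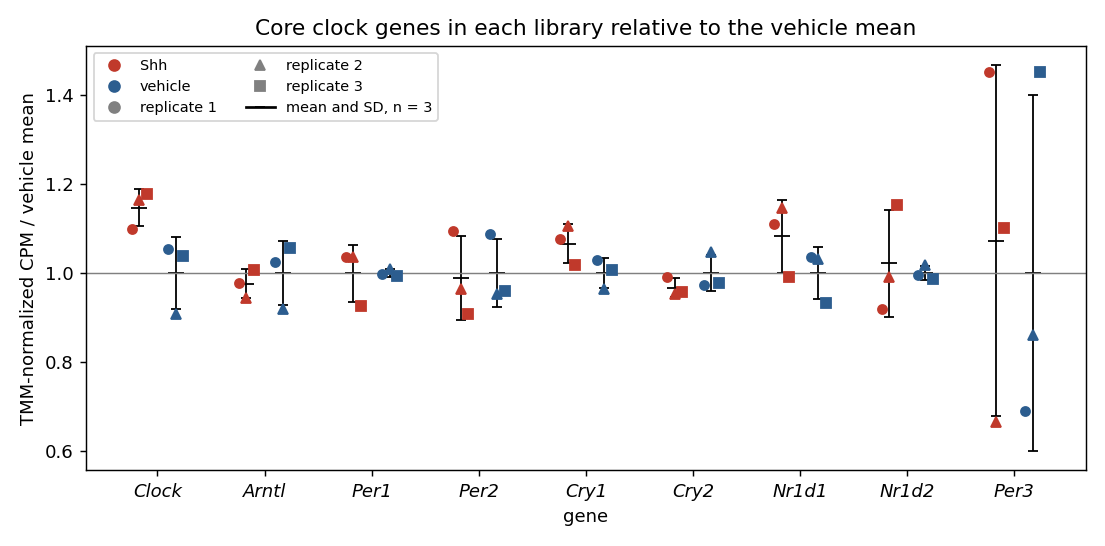
TMM-normalized CPM of 9 core clock genes divided by the vehicle mean (vertical axis) for each gene (horizontal axis), 1 marker a library, Shh left of vehicle, and the mean and SD of 3 libraries in black. *Clock* is the gene for which the 3 Shh libraries (24.4 to 26.1 CPM) lie above the 3 vehicle libraries (20.1 to 23.4 CPM), and *Per3* with 8 to 17 counts has the widest spread.

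The Rev-erb genes form the second loop. *Nr1d1* (NCBI gene 217166) was at 26.2, 27.0 and 23.4 CPM in Shh replicates 1, 2 and 3, against 24.4, 24.3 and 22.0 CPM in vehicle replicates 1, 2 and 3. Shh replicates 1 and 2 were the highest of the 6 libraries, and Shh replicate 3 fell among the vehicle libraries. The log2 fold change was 0.11 (standard error 0.071, adjusted p = 0.560 from edgeR), with a 95% interval of 0.973 to 1.20 in fold. Its 3′ end overlaps that of the thyroid hormone receptor gene *Thra* on the opposite strand by 1075 bases in GENCODE M21, the counts of *Nr1d1* were not whole in any library, and no source used here says that counting used strand. The split of reads between the 2 genes is therefore uncertain. *Thra* was at 23.6 ± 0.339 CPM with Shh and 23.7 ± 0.908 CPM with vehicle, and the sum of both genes at 49.1 ± 1.61 CPM with Shh and 47.3 ± 2.26 CPM with vehicle (SD, n = 3 each). *Nr1d2* (NCBI gene 353187) was at 7.47, 8.05 and 9.37 CPM in Shh replicates 1, 2 and 3, against 8.08, 8.27 and 8.01 CPM in vehicle replicates 1, 2 and 3. Its Shh libraries held both the lowest and the highest value, and the log2 fold change was 0.031 (standard error 0.10).

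**Figure D3:**
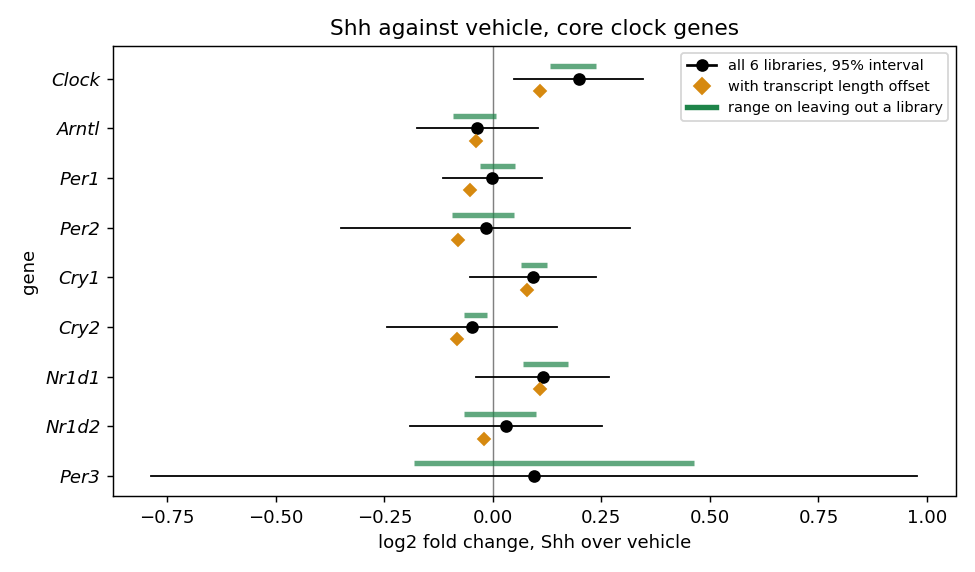
Log2 fold change of Shh over vehicle (horizontal axis) for 9 core clock genes (vertical axis), with the edgeR value and its 95% interval in black, the value with an offset for transcript length as a diamond, and the range on leaving out each library as a green bar. The interval of *Clock* (0.048 to 0.35) is the one that lies above 0, and its diamond is at 0.11. *Per3* has no diamond, because its FPKM was too low to recover a length.

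Ratios between members within a library do not depend on how libraries are scaled, and they were taken because *Arntl* RNA peaks near the trough of *Per2* and *Nr1d1* RNA in a running clock. The log2 ratio of *Arntl* to *Nr1d1* counts was 0.072, -0.026 and 0.28 in Shh replicates 1, 2 and 3, against 0.24, 0.092 and 0.43 in vehicle replicates 1, 2 and 3. The groups overlapped, and the difference of the means was -0.15 beside SDs of 0.16 with Shh and 0.17 with vehicle. The log2 ratio of *Arntl* to *Per2* counts averaged 3.06 ± 0.156 with Shh and 3.07 ± 0.120 with vehicle (SD, n = 3 each), a difference smaller than either SD. The log2 ratio of *Clock* to *Cry1* counts was 0.58, 0.62 and 0.76 in Shh replicates 1, 2 and 3, against 0.59, 0.46 and 0.59 in vehicle replicates 1, 2 and 3. Shh replicate 1 lay within the vehicle range and the other Shh libraries above it. These ratios carry no offset for transcript length, and the transcripts differ, with 9709 bases for *Clock* and 2970 for *Cry1*. *Arntl* has 2610 bases, *Nr1d1* 2715 and *Per2* 5724. With the length offset the log2 fold changes of *Clock* and *Cry1* were 0.11 and 0.079. The part of transcript length in the ratios was not tested.

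Across the 6 libraries, the tested genes of at least 5 CPM whose log2 CPM was most like that of *Arntl* were *Actr8*, *Bnip3l* and *Gtf2e2*, with Pearson's r of 0.99, 0.97 and 0.97 among 9841 genes compared. The points share their libraries, and these values are a description only. Vehicle replicate 2 was the lowest of the 6 for *Arntl* and for *Actr8* and *Bnip3l*.

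The genes that act with the core loop were described by the same fit, over a list of 48 of which 45 were tested. None was called by edgeR or DESeq2 (0 each). At an unadjusted p under 0.05, edgeR had 6 higher and 2 lower, against 4.83% and 5.56% of all genes tested, and DESeq2 had 6 in either direction. The list includes *Usp31*, which is among the 6 higher. The study tied *Usp31* to Bmal1 after picking it from its RNA-seq of Hepa 1–6 cells given Shh. These counts and the median thus hold a gene chosen for being higher with Shh. The median log2 fold change of the 45 was 0.027, with 27 above 0 and 18 below. Their transcripts had a median length of 4011 bases over the 42 with a recovered length, against 2690 for all genes tested.

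Of the output factors of the clock, 3 of 4 were tested and none passed. *Dbp*, a PAR bZIP activator whose RNA swings widely in a synchronized liver, was at 2.08, 1.45 and 0.883 CPM in Shh replicates 1, 2 and 3, against 1.20, 1.69 and 1.24 CPM in vehicle replicates 1, 2 and 3, and its groups overlapped (log2 fold change 0.093, standard error 0.31). *Tef*, of the same family, was at 0.033. *Nfil3*, the repressor that competes with the Dbp family for D-boxes, was at 19.1, 18.2 and 20.0 CPM in Shh replicates 1, 2 and 3, against 22.9, 20.2 and 20.0 CPM in vehicle replicates 1, 2 and 3. Every Shh library was below every vehicle library for *Nfil3* in CPM, as in 8.67% of all genes tested, though Shh replicate 3 and vehicle replicate 3 were nearly equal. On the deposited FPKM its groups overlapped, with Shh replicate 3 at 10.19 and vehicle replicate 2 at 10.16. The log2 fold change of *Nfil3* was -0.14 (standard error 0.071, adjusted p = 0.496 from edgeR). *Rora*, which encodes a nuclear receptor that activates *Arntl*, was at 2.59 ± 0.307 CPM with Shh and 2.37 ± 0.258 CPM with vehicle (SD, n = 3 each). The further repressors *Bhlhe40* and *Ciart*, both driven by E-boxes, had log2 fold changes of -0.011 and -0.10.

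Kinases that mark Per and Cry proteins for turnover or change their stability had log2 fold changes on both sides of 0, and none passed. Of 10 tested, *Gsk3b* was at 44.7 ± 2.55 CPM with Shh and 41.1 ± 1.21 CPM with vehicle, *Csnk1a1* at 348 ± 9.50 CPM with Shh and 329 ± 4.85 CPM with vehicle, and the casein kinase 2 subunit gene *Csnk2b* at 192 ± 3.57 CPM with Shh and 208 ± 8.29 CPM with vehicle (SD, n = 3 each). Their log2 fold changes were 0.12, 0.083 and -0.11, with adjusted p of 0.477, 0.479 and 0.469 from edgeR. *Csnk2b* has a transcript of 921 bases and *Gsk3b* of 8264 bases. *Csnk2a1*, the catalytic subunit gene of casein kinase 2, was at 148 ± 11.5 CPM with Shh and 137 ± 4.62 CPM with vehicle. Of the ubiquitin ligases and deubiquitylases, *Btrc*, whose product targets Per proteins for degradation, had a log2 fold change of -0.047. *Usp7*, a deubiquitylase that stabilizes Cry proteins, was at 0.10 and the ligase gene *Huwe1* at 0.11, with adjusted p of 0.479 and 0.518 from edgeR.

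Among the lists of clock partner genes, co-repressors and chromatin cofactors had the highest median, 0.096 over 12 genes of which 10 lay above 0. Over all 12286 genes tested the median was 0.0028, with 6285 above 0. *Kdm5a*, a histone demethylase that acts as a coactivator of the Clock and Bmal1 pair, was at 53.1, 56.2 and 56.5 CPM in Shh replicates 1, 2 and 3, against 50.9, 45.8 and 48.4 CPM in vehicle replicates 1, 2 and 3. The groups did not overlap, as in 15.5% of all genes tested, and the log2 fold change was 0.19 (standard error 0.053, adjusted p = 0.469 from edgeR). *Ncor1*, the co-repressor that Rev-erb alpha recruits, was at 0.12, and the acetyltransferase genes *Ep300* and *Crebbp* at 0.12 and 0.20. Their transcripts span 8288 bases (*Ncor1*) to 10921 bases (*Kdm5a*), the median of the 12 being 6287 bases. Of the E-box output genes, *Wee1*, a kinase that holds the cell cycle before mitosis, was at 0.080, *Nampt*, an enzyme of NAD synthesis, at 0.060, and *Alas1*, the first enzyme of heme synthesis, at -0.13 (adjusted p = 0.473 from edgeR).

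**Figure D4:**
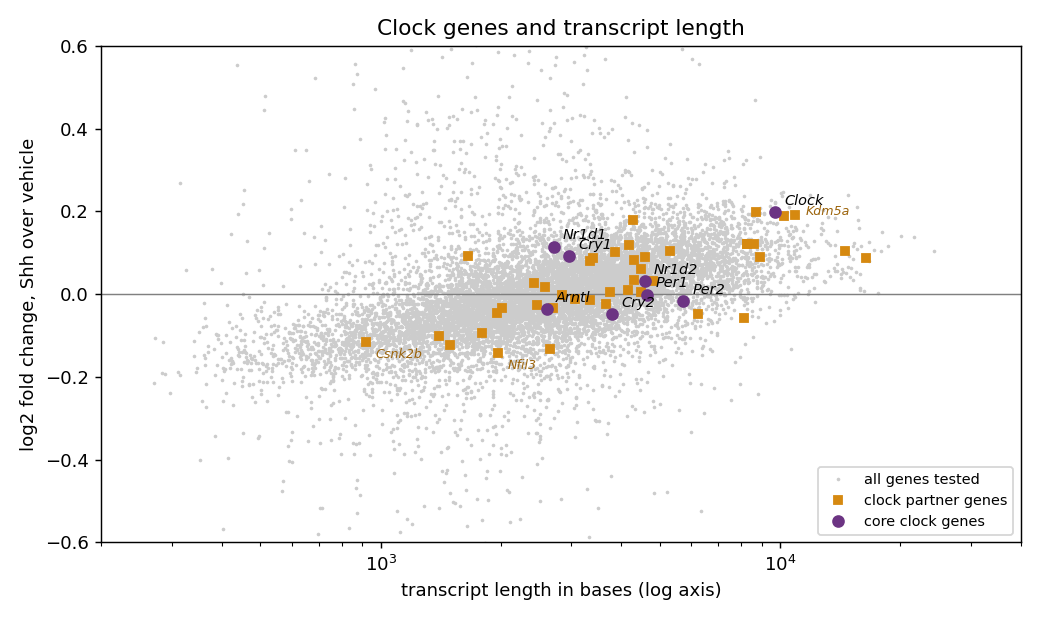
Log2 fold change of Shh over vehicle (vertical axis) against the length of the transcript in bases (horizontal log axis) for the genes tested that have a recovered length in gray, with 8 core clock genes in purple and 42 clock partner genes in orange. *Clock* (9709 bases) and *Kdm5a* (10921 bases) lie at the long end of a cloud that is higher for longer transcripts, and 89 of 11471 genes are outside the axes.

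*Usp31* was at 41.7, 45.9 and 42.7 CPM in Shh replicates 1, 2 and 3, against 39.1, 35.6 and 39.6 CPM in vehicle replicates 1, 2 and 3, without overlap (log2 fold change 0.19, adjusted p = 0.469 from edgeR), with a transcript of 10253 bases. Of all genes tested, 6.79% had Shh libraries wholly above the vehicle libraries. The study picked *Usp31* from deubiquitylase genes that were higher in its RNA-seq of Hepa 1–6 cells given Shh. The separation here is therefore no separate evidence. The E-box of *Usp31* is printed above beside those of *Per1* and *Cry1*. Those 3 genes had log2 fold changes of 0.19, -0.0013 and 0.093. Over all genes tested with a RefSeq window, 1135 held the E-box and had a median log2 fold change of -0.0003, with 4.76% higher and 5.90% lower at an unadjusted p under 0.05. The 8696 without it had a median of 0.0020, with 4.71% higher and 5.73% lower. Among hedgehog genes, *Sufu*, which the study examined together with Bmal1, was at 46.8 ± 1.72 CPM with Shh and 44.8 ± 2.41 CPM with vehicle, the receptor gene *Ptch1* at 35.2 ± 1.60 CPM with Shh and 34.4 ± 2.67 CPM with vehicle, and *Gli1* at 2.39 ± 0.276 CPM with Shh and 2.34 ± 0.179 CPM with vehicle (SD, n = 3 each). *Ptch1* and *Gli1* are direct targets of the canonical pathway, and their log2 fold changes were 0.030 and 0.036. *Smo*, the signal transducer of the pathway, was at 147 ± 2.01 CPM with Shh and 145 ± 2.21 CPM with vehicle.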

How the data were processed

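RNA of Hepa 1–6 cells was sequenced by the authors on a BGISEQ-500 instrument (single-end reads of 50 bases). Estimated counts deposited by the authors (36.4% of values above 0 were not whole) were tested, and FPKM deposited by the authors is a level per transcript length and depth. The submitters' processing notes name Bowtie2. Counting tool, genome build and annotation were not given in the sources used here. A further 6 per-sample columns were not used. Counts were rounded and fitted in R 4.3.3 with edgeR 4.0.16 (TMM, minimum count 10, minimum total 15, quasi-likelihood test, group alone, Benjamini-Hochberg adjustment over all genes tested at 0.05). FPKM served for levels between genes and, where at least 0.5, for transcript length. Alternatives were DESeq2 1.42.0, other scalings and filters, the replicate number as a block, a length offset (5 degrees of freedom) and leaving out each library. The members and lists were chosen with earlier results of these data known. Named beside the members were up to 4 partner genes per list with the smallest p and genes the study ties to the clock. Protein-coding genes that overlap a member and, for *Cry2*, a processed transcript were named too. Up to 4 hepatocyte markers and the 3 genes most correlated with *Arntl* were also named. The depth limits genes of few reads such as *Per2* and *Per3*.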

Additional observations from a re-analysis of the deposited data

How the results depend on the processing

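At an adjusted p under 0.05 no core clock or partner gene was called under any alternative run. Over all genes the 0 calls became 195 without Shh replicate 1, 5 with the replicate block and length offset together, and 0 to 3 under the others. At an unadjusted p under 0.05 there were 1 of 9 core clock genes (*Clock*) and 8 of 45 partner genes, against 10.4% of all genes tested. *Clock* was no longer at that level without vehicle replicate 2 or with the length offset. Separation of the groups held for 2 members, *Clock* and *Cry1*, on library totals and on the deposited FPKM. The share of all genes tested that were separated was taken on TMM-normalized CPM alone, where it was 15.5%. The 2 members on the other scales therefore have no share beside them. *Clock*, *Cry1*, *Nr1d1* and *Cry2* kept their sign in every setting run, *Clock* between 0.11 and 0.24. *Nr1d1* was at 0.17 without Shh replicate 3, where it came under an unadjusted p of 0.05, at 0.071 without Shh replicate 2 and at 0.069 without vehicle replicate 3, and *Cry2* was at -0.014 without vehicle replicate 2. Values near 0 changed sign, none past the threshold. On library totals alone *Per1* was at 0.025 and *Per2* at 0.0092, with the stricter filter *Per1* was at 0.0029, and *Nr1d2* was at -0.020 with the length offset and -0.022 with the replicate block too. On leaving out a library *Arntl* ranged from -0.093 to 0.0067, *Per1* from -0.028 to 0.050, *Per2* from -0.095 to 0.048, *Per3* from -0.18 to 0.46 and *Nr1d2* from -0.066 to 0.10. The ratios between members, left out library by library after the data had been seen, moved by less than 1 SD. Libraries with the same replicate number did not deviate together in all 3 cases (r of -0.030, -0.067 and 0.12), and the replicate block called 0 core clock genes. Depth limits *Per2*, *Per3* and *Npas2*.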
